A study of Mus musculus with 23 samples.

Results

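The probes described here measure the proteasome, the barrel-shaped protease complex that degrades ubiquitin-tagged proteins, in mouse spleen after gamma irradiation. They are all probes whose gene symbol in the platform annotation starts with Psma, Psmb, Psmc, Psmd, Psme or Psmg followed by a digit, kept where 3 or more of the 23 arrays had a detection p-value under 0.05. That name rule matched 50 probes for 48 symbols, and 43 probes for 42 symbols passed, out of 18423 probes that passed among the 34492 on the array. The 43 probes held 14 for the 20S core, 3 for immunoproteasome subunits, 20 for regulatory particles, 4 for assembly chaperones, and 2 that share only the first letters of the name. The latter are Psmc3ip, a partner of the recombinases of homologous recombination, and Psme3ip1, which interacts with the activator Psme3.

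RNA came from spleens of 10-week-old male mice of 2 inbred strains, C57BL/6J and DBA/2J, taken 24 h after exposure. The low dose groups received 10 cGy at 9 cGy/h from a 137Cs source, the high dose groups received 1 Gy at 6 Gy/min from a 60Co source, and the control groups were not irradiated. Each array held a pool of equal parts of RNA from 2 mice, and there were 4 pools in each group except DBA/2J low dose, which had 3. The 2 doses also differ in dose rate and source, so the effects of these cannot be told apart.

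The 20S core is a stack of rings of alpha and beta subunits, and 3 of its beta subunits (Psmb5, Psmb6 and Psmb7) carry the proteolytic sites. In cells exposed to interferon gamma, and constitutively in many lymphoid cells, these 3 are replaced by Psmb8, Psmb9 and Psmb10, which gives the immunoproteasome and changes the peptides available to MHC class I molecules. The 19S particle, with its ring of Psmc ATPases and its Psmd subunits, recognises and unfolds ubiquitinated proteins. PA28 rings (Psme1 with Psme2, or Psme3 in the nucleus) and Psme4, also called PA200, are alternative caps that open the core.

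Between 14233 and 16002 probes were detected per array, and the number of arrays limits the precision of every value. Values below are log2 of the normalized signal, and a change is the difference of 2 group means on that scale with its standard error. The normalized values had a floor at 7.78, so changes of probes near it are compressed towards 0. A change is called where limma's p-value, adjusted by Benjamini-Hochberg over all 18423 probes, was under 0.05. The 3 DBA/2J low dose pools were not alike. On the first principal component, which held 53.2% of the variance, pools 1 and 3 stood at 63.6 and 64.8, and pool 2 stood at 18.5, while all 4 DBA/2J controls stood below pools 1 and 3. The mean level of 13 erythroid markers was 13.20 and 13.30 in pools 1 and 3, 11.52 in pool 2, and 11.88 to 12.73 in the DBA/2J controls. Results that rest on this group are therefore given with all 3 pools and with pool 2 alone. Transcripts of the exocrine pancreas stood at a mean of 13.68 in C57BL/6J control pool 1 and 14.02 in C57BL/6J high dose pool 1, and near the floor in the other pools.

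The promoter windows of 4 catalytic subunits and of the activator Psme1 are shown first, because the members are grouped below by this exchange of subunits. Each window runs from 250 bases before to 50 bases after the start of the gene, 5′ to 3′ on the gene's strand, from RefSeq on GRCm38.p6. Of the 42 symbols, 36 had a window, 40 windows in all. Capitals mark matches, on either strand, to the interferon response motif (GAAA, any 2 bases, GAAA), the gamma-activated site TTCNNNGAA or the core TGACNNNGC of the antioxidant response element. The windows lie at chr17:34197945-34198244 (plus strand) for Psmb8, chr17:34187281-34187580 (minus strand) for Psmb9, chr14:55578244-55578543 (plus strand) for Psme1, chr14:54617946-54618245 (minus strand) for Psmb5 and chr11:70525107-70525406 (plus strand) for Psmb6.
Psmb8: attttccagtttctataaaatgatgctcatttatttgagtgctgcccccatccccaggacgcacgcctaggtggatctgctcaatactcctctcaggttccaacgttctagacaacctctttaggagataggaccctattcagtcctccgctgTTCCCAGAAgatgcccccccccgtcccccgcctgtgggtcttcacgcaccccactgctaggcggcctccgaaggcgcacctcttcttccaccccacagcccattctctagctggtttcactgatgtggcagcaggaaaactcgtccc
Psmb9: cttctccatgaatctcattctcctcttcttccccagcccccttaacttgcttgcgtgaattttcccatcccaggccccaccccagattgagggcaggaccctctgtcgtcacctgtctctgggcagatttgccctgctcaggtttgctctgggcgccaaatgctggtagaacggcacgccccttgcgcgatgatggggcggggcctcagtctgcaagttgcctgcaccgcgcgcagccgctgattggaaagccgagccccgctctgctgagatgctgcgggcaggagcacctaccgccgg
Psme1: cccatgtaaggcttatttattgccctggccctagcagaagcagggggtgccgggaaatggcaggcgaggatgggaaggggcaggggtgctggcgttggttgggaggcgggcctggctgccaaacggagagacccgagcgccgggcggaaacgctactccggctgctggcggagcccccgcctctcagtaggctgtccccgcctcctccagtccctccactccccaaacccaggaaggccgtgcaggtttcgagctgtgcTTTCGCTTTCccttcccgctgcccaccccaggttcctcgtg
Psmb5: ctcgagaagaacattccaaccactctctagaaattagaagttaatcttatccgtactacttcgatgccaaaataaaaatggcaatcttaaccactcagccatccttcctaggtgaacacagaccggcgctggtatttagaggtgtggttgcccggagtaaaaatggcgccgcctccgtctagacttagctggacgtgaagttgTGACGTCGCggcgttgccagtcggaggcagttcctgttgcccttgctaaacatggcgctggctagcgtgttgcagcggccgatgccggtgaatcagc
Psmb6: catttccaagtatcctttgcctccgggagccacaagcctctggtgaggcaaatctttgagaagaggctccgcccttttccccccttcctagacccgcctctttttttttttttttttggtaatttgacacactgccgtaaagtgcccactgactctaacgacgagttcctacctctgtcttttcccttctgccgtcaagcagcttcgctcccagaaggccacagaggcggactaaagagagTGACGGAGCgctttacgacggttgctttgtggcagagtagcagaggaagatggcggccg

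The Psme1 window held the interferon response motif and the Psmb8 window the gamma-activated site, while the windows of Psmb9, Psmb10 and Psme2 held none of the 3 motifs. The windows of the constitutive subunits Psmb5 and Psmb6 each held the antioxidant response core. Over the 6 windows of Psmb8, Psmb9, Psmb10, Psme1 and Psme2, 1 held the interferon response motif, 1 the gamma-activated site and 0 the antioxidant response core. Over the 31 windows of the other subunits, activators and chaperones the counts were 3, 2 and 5. The same motifs stood in 3.44%, 8.3% and 12.4% of all 32851 windows, so these counts are a description of few windows. The Psmb9 window overlaps that of Tap1, a peptide transporter of class I presentation, by 275 bases on chromosome 17.

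The largest differences among the proteasome probes lay between the strains and not between doses. Psmb6 and Psmb9, a constitutive and an immuno subunit that occupy the same position of the ring, and Psmb5 were lower in DBA/2J than in C57BL/6J controls. These were the 3 called probes of 43, against 10% of all 18423 probes (4.48% higher and 5.56% lower), and 0 of the 43 were called higher, with 0 at an unadjusted p under 0.05 too. Psmb6 (ILMN_2777337) read 13.10, 13.13, 13.15 and 13.20 in the C57BL/6J control pools and 8.77, 8.39, 8.37 and 8.41 in the DBA/2J control pools. It was 25.3-fold lower in DBA/2J, a log2 change of -4.66 ± 0.12 (limma, adjusted p = 1.99e-15), with no overlap between the groups.

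Psmb9 (ILMN_1242466) read 12.77, 12.81, 13.28 and 13.14 in the C57BL/6J controls against 8.68, 8.44, 8.64 and 8.75 in the DBA/2J controls. Its log2 change of -4.38 ± 0.14 corresponds to 20.8-fold (limma, adjusted p = 1.33e-13). Both probes were detected on all 23 arrays, but their DBA/2J values lie towards the floor, where the size of a fold depends on the background correction. Psmb5 (ILMN_2613469) read 12.07, 11.73, 11.85 and 11.97 against 11.27, 10.76, 10.94 and 10.52, a change of -1.03 ± 0.15 or 2.04-fold (limma, adjusted p = 9.3e-05). The strains did not overlap for any of these 3 genes. Psmb7 (ILMN_1233153), the constitutive subunit with trypsin-like activity, read 12.67, 12.39, 12.68 and 12.77 in C57BL/6J and 12.88, 12.38, 12.62 and 12.54 in DBA/2J, groups that overlapped. The changes of Psmb8, Psmb10, Psme1 and Psme2 between the control groups were -0.08, -0.08, -0.09 and 0.03, none of them called.

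Each probe binds 1 fixed sequence, and whether a DBA/2J variant under the probes of Psmb5, Psmb6 or Psmb9 contributes was not tested. Between the same controls, limma called 12 of 12 granulocyte and 5 of 8 NK cell markers lower in DBA/2J, against 10% of all probes. Of 11 T cell and 9 macrophage markers, 1 and 2 were called lower. All 13 erythroid and 8 B cell markers lay above 0, with 0 called. The part of such cell type differences in the values of these 3 probes was not tested either. The low level of Psmb6 and Psmb9 in DBA/2J held in every irradiated pool. Psmb6 lay between 8.29 and 9.09 in the DBA/2J low and high dose pools against 13.04 to 13.45 in the irradiated C57BL/6J pools. Psmb9 lay between 8.25 and 8.74 against 13.11 to 13.82.

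**Figure D1:**
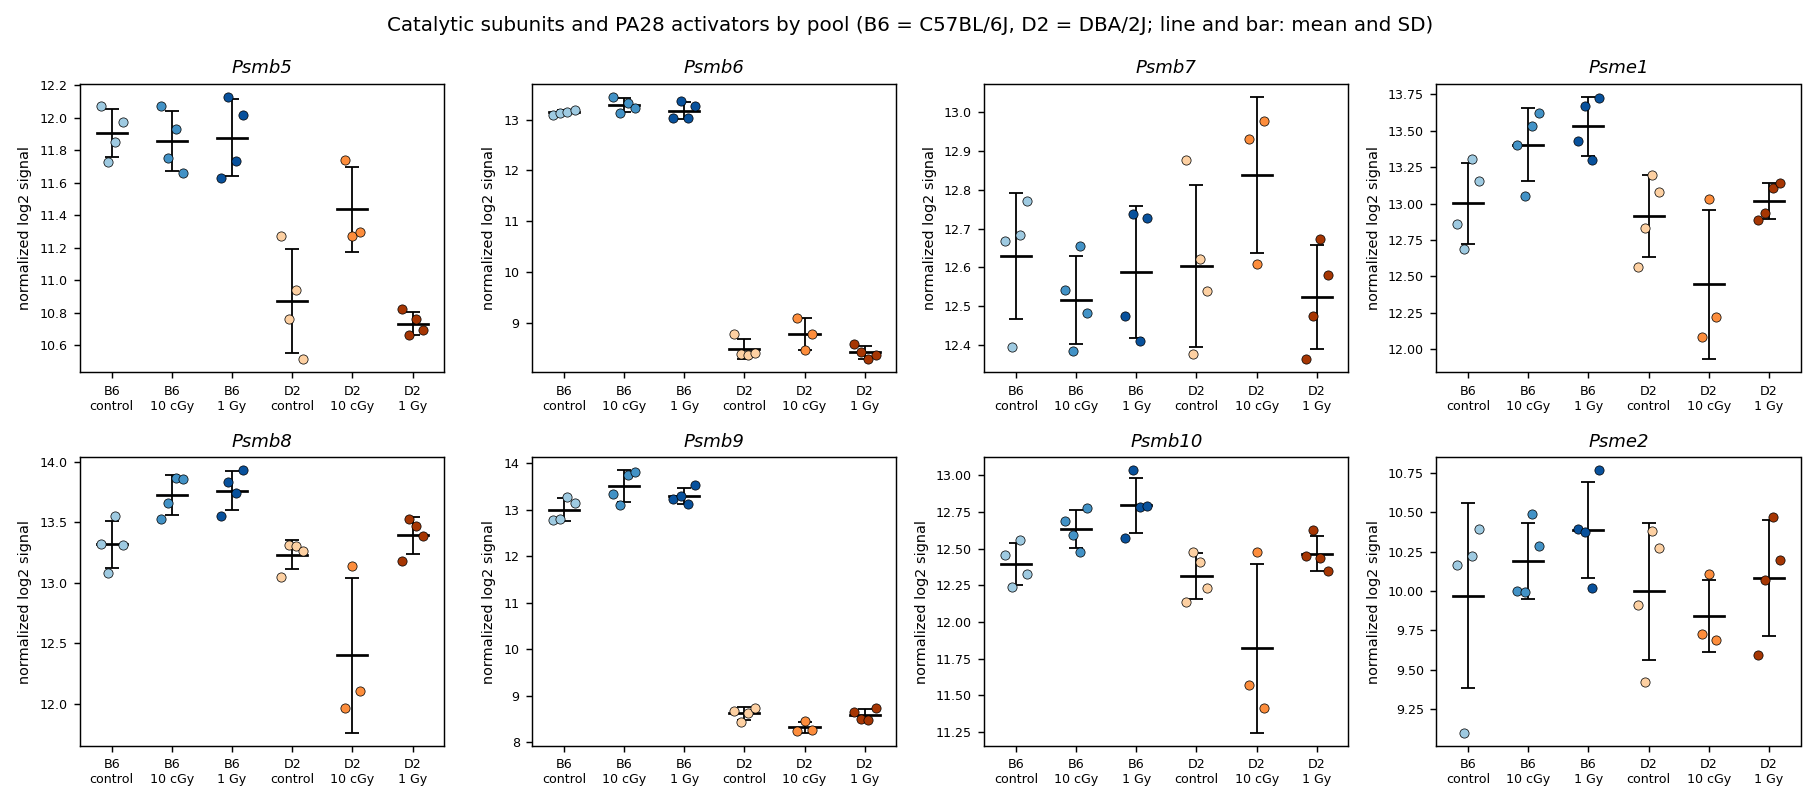
Normalized log2 signal (y axis) of the constitutive catalytic subunits Psmb5, Psmb6 and Psmb7, the immuno subunits Psmb8, Psmb9 and Psmb10 and the PA28 genes Psme1 and Psme2 in the 6 groups (x axis), 1 point per pool, with lines and bars for the mean and SD. Psmb6 and Psmb9 sit at 9.09 or below in every DBA/2J pool and at 12.77 or above in every C57BL/6J pool, and DBA/2J 10 cGy pools 1 and 3 sit below the other DBA/2J pools for Psmb8 and Psmb10.

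Among the 43 probes, the widest change with dose in the model with all pools was that of Psmb1, a beta subunit without a proteolytic site. The Psmb1 probe (ILMN_1239724) read 9.38, 8.83, 9.51 and 9.36 in the C57BL/6J controls and 12.05, 11.92, 11.95 and 12.23 after 1 Gy. It rose by 2.77 ± 0.30, or 6.81-fold (limma, adjusted p = 2.99e-05), and was the largest rise among the 18423 probes in that comparison. The C57BL/6J low dose pools spread widely, at 9.93, 10.16, 9.19 and 11.26, and their change of 0.87 ± 0.30 was not called (limma, adjusted p = 0.188).

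In DBA/2J, Psmb1 read 9.08, 9.16, 9.13 and 9.00 in the controls and 10.38, 11.03, 10.08 and 10.43 after 1 Gy. It rose by 1.39 ± 0.30, or 2.62-fold (limma, adjusted p = 0.0393), and ranked 3 among all probes by the size of its rise. All high dose pools of both strains lay above all control pools of their strain. The DBA/2J low dose pools read 9.32, 9.86 and 9.12, a change of 0.34 (adjusted p = 0.539). The difference between the strains in the high dose change was -1.38 ± 0.43 and was not called (limma, adjusted p = 0.497). High dose lay above low dose by 1.90 ± 0.30 in C57BL/6J (adjusted p = 0.00829) and by 1.05 ± 0.33 in DBA/2J (adjusted p = 0.0219). With DBA/2J low dose pool 2 alone that second difference was 0.62 (adjusted p = 0.625).

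The call in DBA/2J was the less stable one. Leaving out 1 pool at a time kept it in 9 of 23 fits, with adjusted p between 0.0098 and 0.149, while the C57BL/6J high dose call was kept in 23 of 23 fits with a change of 2.62 to 2.85. Without both pools that held pancreas transcripts, the DBA/2J change had an adjusted p of 0.0635. The genes that flank Psmb1 on its chromosome, chosen after their values were seen, changed by 0.01 (Pdcd2), -0.01 (Tbp) and -0.02 (Fam120b) in C57BL/6J at high dose, with adjusted p of 0.987, 0.977 and 0.976. Dll1 changed by 0.26 (adjusted p = 0.0537).

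Psme3, the nuclear PA28 gamma activator, was the other probe called at high dose in C57BL/6J, in the opposite direction. Its probe (ILMN_2729718) read 11.22, 12.25, 12.14 and 12.03 in the controls, 11.30, 10.76, 11.76 and 11.33 after 10 cGy, and 10.93, 10.50, 10.39 and 11.07 after 1 Gy. It fell by 1.19 ± 0.32 on the log2 scale at 1 Gy, or 2.28-fold (limma, adjusted p = 0.0341), and all 4 high dose pools lay below all 4 controls. The call was lost without C57BL/6J control pool 2, 3 or 4 or high dose pool 1, 2 or 3, with adjusted p up to 0.109. In DBA/2J the probe read 12.24, 12.07, 12.53 and 12.36 in the controls and 10.83, 10.79, 11.65 and 11.49 after 1 Gy. Those groups did not overlap either, but the change of -1.11 ± 0.32 was not called (limma, adjusted p = 0.11), and with DBA/2J low dose pool 2 alone it was (adjusted p = 0.0205).

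Psmb1 and Psme3 were the 2 called of 43 in C57BL/6J at high dose, 4.65% against 5.91% of all probes. In DBA/2J at high dose Psmb1 was the 1 call, 2.33% against 0.977% of all probes. At low dose in C57BL/6J limma called 0 of 43, against 1.58% of all probes, with 3 higher and 5 lower at an unadjusted p under 0.05. With DBA/2J low dose pool 2 alone in the same model, these 3 counts became 9, 2 and 4, against 11.7%, 5.33% and 4.97% of all probes. For the strain difference of the high dose change limma called 0 of 43 with either sample set, against 0.228% and 0.25% of all probes, with 1 lower probe at an unadjusted p under 0.05 in each. High against low dose in C57BL/6J gave 1 call, Psmb1, against 0.163% of all probes.

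**Figure D2:**
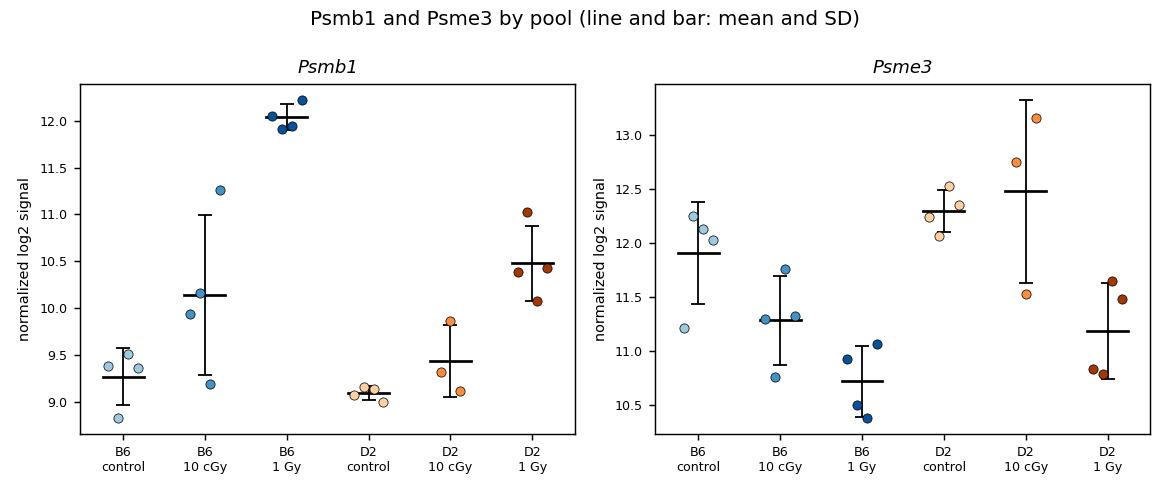
Normalized log2 signal (y axis) of Psmb1 and Psme3 in the 6 groups (x axis), 1 point per pool, with lines and bars for the mean and SD. For Psmb1 every 1 Gy pool lies above every control pool of its strain, and for Psme3 every 1 Gy pool lies below them.

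Marker genes of cell types and of mitosis also changed in the irradiated groups. Counts in this paragraph are of genes called by limma. Over all probes, 5.91% were called at 1 Gy and 1.58% at 10 cGy in C57BL/6J, and 0.977% at 1 Gy in DBA/2J. The mean of the erythroid markers lay between 11.17 and 12.10 in C57BL/6J controls, 9.08 and 10.65 after 10 cGy, and 8.36 and 8.65 after 1 Gy. At 1 Gy 10 of its 13 genes were called lower, and all 13 lay below 0. The mean of 9 mitosis genes lay between 9.80 and 10.45 in the controls and between 8.29 and 8.79 after 1 Gy. Of 12 granulocyte markers 10 were called lower at each dose in C57BL/6J, and all 12 lay below 0. Their mean lay between 11.37 and 13.46 in the controls, 9.11 and 10.02 after 10 cGy, and 9.23 and 9.77 after 1 Gy. The mean of the T cell markers ranged from 9.86 to 10.18 in the controls and from 10.41 to 10.44 after 1 Gy. There 4 of 11 T cell, 4 of 8 NK cell and 1 of 9 macrophage markers were called higher. All 11, 8 and 9 lay above 0. After 1 Gy in DBA/2J, 5 of 13 erythroid markers and 3 of 9 mitosis genes were called lower, and all 13 and 9 lay below 0. Limma called 0 of 12 granulocyte markers, with 0 at an unadjusted p under 0.05. The erythroid mean there lay between 10.16 and 11.14 against 11.88 to 12.73 in the controls. In bulk spleen RNA, fewer cells of a type and less RNA per cell cannot be told apart, and the part of these shifts in the values of Psmb1, Psme3 and the immuno subunits was not tested.

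In the irradiated C57BL/6J pools, the immuno subunits and their PA28 partners all lay above the control mean. In DBA/2J low dose pools 1 and 3 they all lay below the control mean of that strain. The medians of the other subunits did not follow in these groups. In C57BL/6J all 5 of Psmb8, Psmb9, Psmb10, Psme1 and Psme2 lay above the control mean in each of the 4 low dose and 4 high dose pools, by a median over the 5 of 0.23 to 0.61 at 1 Gy and 0.11 to 0.54 at 10 cGy. None of the 5 was called at either dose in the model with all pools. Their median change was 0.42 at 1 Gy and 0.40 at 10 cGy, against -0.05 for the other 36 subunits, activators and chaperones at both doses and 0.01 over all probes.

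Psmb8 (ILMN_2693940), the immuno counterpart of Psmb5, read 13.32, 13.08, 13.56 and 13.31 in the C57BL/6J controls, 13.53, 13.66, 13.87 and 13.86 after 10 cGy and 13.55, 13.83, 13.74 and 13.93 after 1 Gy. Its changes were 0.41 and 0.45 ± 0.18 (limma, adjusted p = 0.319 and 0.18), and the dose groups overlapped the controls at their edge. Psmb10 (ILMN_2757870), the counterpart of Psmb7, read 12.46, 12.24, 12.56 and 12.33 in the controls, 12.69, 12.60, 12.48 and 12.78 after 10 cGy and 12.57, 13.03, 12.78 and 12.79 after 1 Gy. Its high dose change was 0.40 ± 0.17 (limma, adjusted p = 0.19), without overlap.

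Psmb9 read 13.33, 13.11, 13.75 and 13.82 after 10 cGy in C57BL/6J and 13.23, 13.30, 13.13 and 13.52 after 1 Gy, changes of 0.50 ± 0.14 (limma, adjusted p = 0.0953) and 0.30 ± 0.14 (adjusted p = 0.268). Psme1 (ILMN_2671204), the PA28 alpha subunit, read 12.86, 12.69, 13.30 and 13.15 in the controls, 13.40, 13.05, 13.53 and 13.62 after 10 cGy and 13.43, 13.67, 13.30 and 13.73 after 1 Gy. Its change at 1 Gy was 0.53 ± 0.19 (limma, adjusted p = 0.127). Psme2 (ILMN_2731057), the PA28 beta subunit, was the most scattered of the 5, since its controls read 10.16, 9.10, 10.22 and 10.39. It read 10.00, 9.99, 10.49 and 10.28 after 10 cGy and 10.39, 10.37, 10.02 and 10.76 after 1 Gy, a high dose change of 0.42 ± 0.27 (limma, adjusted p = 0.428).

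With DBA/2J low dose pool 2 alone in its group, the C57BL/6J changes of these 5 were the same as above, while the model's spread was smaller. More probes then passed over the whole array as well. Calls gained in C57BL/6J in that fit are therefore not read as a result about these 5. The changes of Psmc3 (-0.32), Psmd13 (-0.26), Psmc3ip (-0.88), Psmd9 (-0.08) and Psme3 at 1 Gy were also the same there.

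No change was called for the constitutive counterparts in C57BL/6J. Psmb5 read 12.07, 11.75, 11.93 and 11.66 after 10 cGy and 11.63, 12.13, 11.73 and 12.02 after 1 Gy, changes of -0.05 and -0.03. Psmb6 read 13.45, 13.13, 13.33 and 13.23 after 10 cGy and 13.04, 13.37, 13.04 and 13.26 after 1 Gy, changes of 0.14 and 0.03. Psmb7 read 12.54, 12.38, 12.66 and 12.48 after 10 cGy and 12.47, 12.74, 12.41 and 12.73 after 1 Gy, changes of -0.11 and -0.04. All of these groups overlapped their controls and none was called.

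In DBA/2J at high dose the 5 immuno and PA28 probes changed by a median of 0.10, with 4 of 5 above 0 and 0 called. Psmb8 read 13.05, 13.32, 13.30 and 13.26 in the controls and 13.18, 13.53, 13.47 and 13.39 after 1 Gy, a change of 0.16. Psmb10 read 12.13, 12.48, 12.41 and 12.23 in the controls and 12.45, 12.63, 12.43 and 12.35 after 1 Gy, a change of 0.15. Psmb9 read 8.65, 8.49, 8.48 and 8.74 after 1 Gy, a change of -0.03, at a level where changes are compressed. Psme1 read 12.56, 12.83, 13.20 and 13.08 in the controls and 12.89, 12.94, 13.10 and 13.14 after 1 Gy. Psme2 read 9.91, 9.42, 10.38 and 10.27 in the controls and 9.59, 10.07, 10.47 and 10.19 after 1 Gy. These pairs of groups all overlapped, with changes of 0.10 and 0.09. Over the 5 genes the median strain difference in the high dose change was -0.33, and it was -0.04 when arrays were scaled to their medians in place of quantile normalization.

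**Figure D3:**
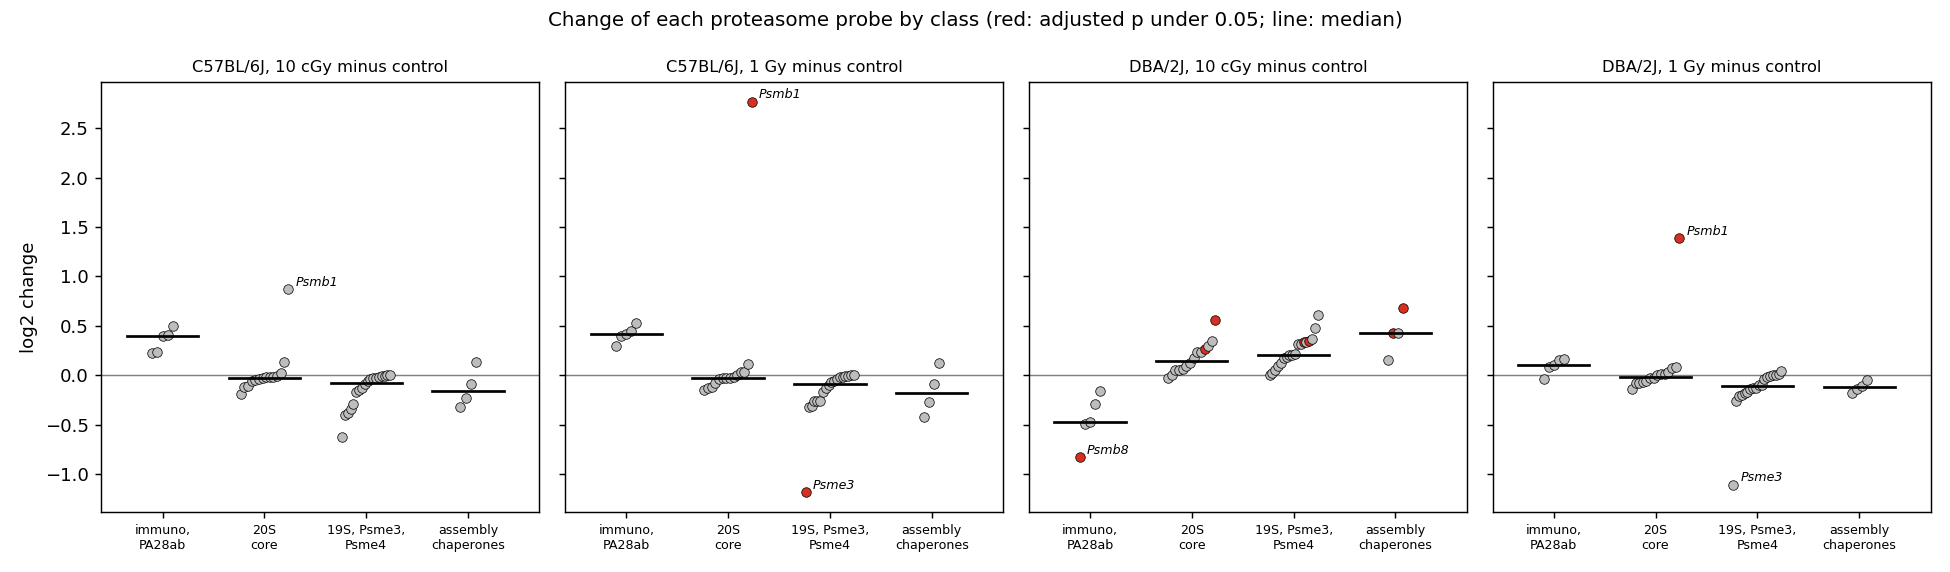
Log2 change of 41 proteasome probes against the control of their strain (y axis) by class (x axis), for 10 cGy and 1 Gy in each strain. Psmc3ip and Psme3ip1 are not shown. Red points mark an adjusted p under 0.05, and a line marks the class median. The 5 immuno and PA28 alpha and beta genes lie above 0 in C57BL/6J at both doses and below 0 in DBA/2J at 10 cGy, where the medians of the other 3 classes lie above 0.

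DBA/2J mice at low dose showed the widest shift over the whole complex, and it came from 2 of the 3 pools. With all 3 pools, 7 of 43 probes were called, 6 higher and 1 lower, 16.3% against 7.81% of all probes (4.08% higher and 3.73% lower). The probe that fell was Psmb8, which read 11.96, 13.14 and 12.10 in pools 1, 2 and 3, a change of -0.83 ± 0.20 (limma, adjusted p = 0.0188). Pools 1 and 3 lay below every control pool and pool 2 lay within the controls. With pool 2 alone, 0 of 43 probes were called by limma, with 4 higher and 2 lower at an unadjusted p under 0.05, against 1.6% of all probes. Leaving out pool 1, 2 or 3 by itself gave 0, 22 and 1 calls, against 1.2%, 26.5% and 2.65% of all probes, and leaving out DBA/2J control pool 2, 3 or 4 gave 0.

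The other 4 members of the immuno group split the same way between the pools. Psmb10 read 11.57, 12.48 and 11.41, a change of -0.49 ± 0.18 (limma, adjusted p = 0.094). Psme1 read 12.09, 13.03 and 12.22, a change of -0.47 ± 0.21 (limma, adjusted p = 0.162). In both, pools 1 and 3 lay below all 4 controls. Psmb9 read 8.25, 8.47 and 8.27, and Psme2 read 9.73, 10.11 and 9.69, changes of -0.29 and -0.16 that were not called. The median shift of the 5 genes from the control mean was -0.74 in pool 1, 0.11 in pool 2 and -0.70 in pool 3, and 0, 3 and 0 of the 5 lay above it.

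The other 36 subunits, activators and chaperones shifted upwards in the same 2 pools. Of the 36, 34 lay above the control mean in pool 1, 16 in pool 2 and 34 in pool 3, with median shifts of 0.31, -0.01 and 0.29. The 6 called higher with all pools were Psmg3 (0.68), Psmb5 (0.56), Psmd10 (0.43), Psmc4 (0.34), Psmc5 (0.34) and Psmb3 (0.26), with limma adjusted p between 0.0224 and 0.0454. Psmb5 read 11.74, 11.27 and 11.30 in the 3 pools, where pools 2 and 3 were alike. Psmg3 (ILMN_2695599), an assembly chaperone of the alpha ring, read 9.93, 9.19, 9.33 and 9.16 in the controls and 10.16, 9.95 and 10.13 in the low dose pools. All 3 low dose pools lay above all 4 controls for Psmg3, and its change with pool 2 alone was 0.54 (adjusted p = 0.405). Psmb7 read 12.93, 12.61 and 12.98 and was not called, and Psmb6 read 9.09, 8.47 and 8.77.

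**Figure D4:**
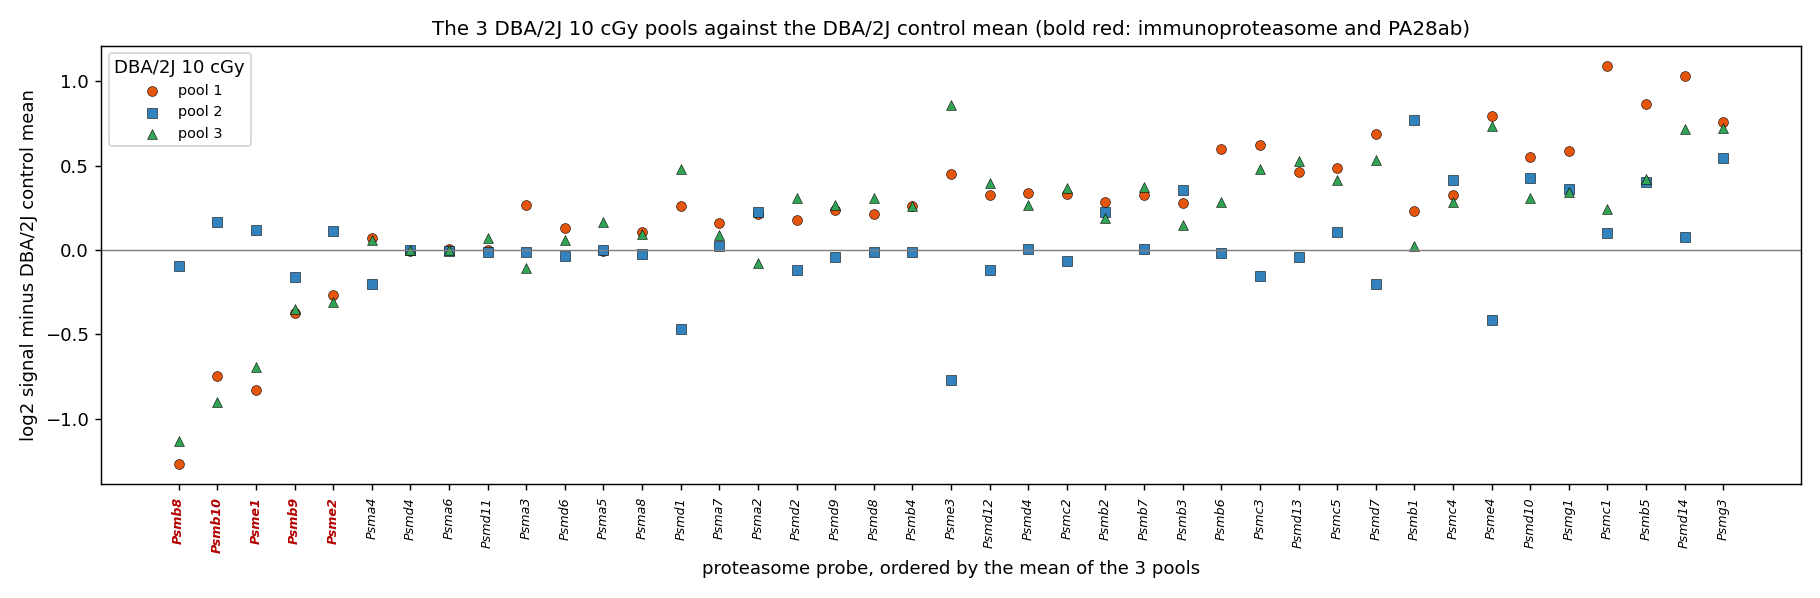
Log2 signal of 41 proteasome probes in the 3 DBA/2J 10 cGy pools minus the DBA/2J control mean (y axis), with probes ordered by the mean of the 3 pools (x axis). Pools 1 and 3 lie below 0 for the immuno and PA28 genes and above 0 for most others, while the median of pool 2 is 0.11 for the former and -0.01 for the latter.

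Cell type markers set pools 1 and 3 apart as well. The mean of the mitosis genes was 11.52, 9.79 and 11.56 in pools 1, 2 and 3 against 9.90 to 10.93 in the DBA/2J controls, and that of 8 B cell markers was 9.08, 10.19 and 9.47 against 10.00 to 10.73. The mean of 11 T cell markers was 9.06, 10.03 and 9.04 against 9.67 to 10.07. Granulocyte markers were high in all 3, at 14.08, 13.28 and 13.50 against 9.38 to 11.77 in the controls. Among the DBA/2J controls, pool 1 held the lowest B cell (10.00) and T cell (9.67) means and the highest granulocyte mean (11.77). The part of these cell types in the proteasome values was not tested.

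High against low dose within DBA/2J repeated this pattern with the sign turned, since it uses the same 3 low dose pools. With all pools 21 of 43 probes were called, 4 higher and 17 lower, 48.8% against 32.6% of all probes (16.5% higher and 16.2% lower). The 4 higher were Psmb1, Psmb8 (0.99 ± 0.20, limma adjusted p = 0.00171), Psmb10 (0.64 ± 0.18, adjusted p = 0.0118) and Psme1 (0.57 ± 0.21, adjusted p = 0.0445). The 17 lower included 4 of 5 ATPases, 4 of 4 chaperones, 4 of 11 non-ATPase probes of the 19S particle, Psmb5, Psmb6, Psme3, Psme4 and Psmc3ip. With pool 2 alone, limma called 0 of 43, with 0 higher and 7 lower at an unadjusted p under 0.05, against 1.72% of all probes, and Psmb10 and Psme1 stood at -0.01 each. Leaving out pool 1, 2 or 3 by itself gave 9, 29 and 9 calls, against 16.8%, 41.3% and 18.9% of all probes.

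The test of the strain difference in the low dose change called 13 of 43 probes, 9 higher and 4 lower in DBA/2J than in C57BL/6J, 30.2% against 17% of all probes (8.27% higher and 8.7% lower). The 4 lower were the immuno group without Psme2: Psmb8 (-1.24 ± 0.27, limma adjusted p = 0.0073), Psme1 (-0.87 ± 0.29, adjusted p = 0.0452), Psmb9 (-0.80 ± 0.21, adjusted p = 0.0189) and Psmb10 (-0.73 ± 0.25, adjusted p = 0.0489). The 9 higher were Psmc3ip, Psmg3, Psmg1, Psmd7, Psmc3, Psmc5, Psmd13, Psmb2 and Psmd9, with differences from 0.24 to 1.68. With pool 2 alone limma called 0 of 43, with 5 higher and 3 lower at an unadjusted p under 0.05, against 1.95% of all probes, and leaving out pool 1, 2 or 3 by itself gave 2, 24 and 5 calls, against 6.08%, 31.7% and 8.02%. Psmb8 then differed by -0.51 (adjusted p = 0.273) and Psmb9 by -0.66 (adjusted p = 0.3). The 5 immuno and PA28 genes all lay below 0 in that fit too, with a median of -0.28. The Psmb9 probe reads near the floor in DBA/2J, which compresses its change there.

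Several members showed their widest spread across the DBA/2J low dose pools. Psmc3ip (ILMN_1237383) read 9.21, 9.90, 8.82 and 9.73 in the C57BL/6J controls, 8.60, 8.70, 8.59 and 8.59 after 10 cGy and 8.42, 8.50, 8.70 and 8.50 after 1 Gy. In DBA/2J it read 10.24, 9.37, 9.36 and 9.18 in the controls, 10.83, 9.51 and 10.92 after 10 cGy and 8.86, 9.09, 9.10 and 9.04 after 1 Gy. In both strains the high dose pools lay below the controls, by 0.88 ± 0.28 (limma, adjusted p = 0.0706) and 0.52 ± 0.28 (adjusted p = 0.498) on the log2 scale. Psme4 (ILMN_1253420), the PA200 activator known from chromatin and spermatogenesis, read 9.24, 9.05, 9.14 and 8.96 in the DBA/2J controls, 9.89, 8.68 and 9.83 after 10 cGy and 8.68, 8.89, 8.89 and 8.90 after 1 Gy. Its C57BL/6J pools stayed between 8.57 and 8.88. Psme3 itself read 12.75, 11.53 and 13.16 in the DBA/2J low dose pools, with pool 2 below and pools 1 and 3 above all controls.

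Within the 19S particle, Psmd14 (ILMN_1247747), the deubiquitinase of the lid, read 9.20, 9.75, 8.91 and 9.00 in C57BL/6J controls, 8.85, 9.73, 8.80 and 8.96 after 10 cGy and 8.85, 9.02, 9.34 and 8.60 after 1 Gy. In DBA/2J it read 9.84, 8.93, 8.90 and 9.26 in the controls, 10.26, 9.31 and 9.95 after 10 cGy and 9.39, 8.93, 8.88 and 9.05 after 1 Gy. All of these dose groups overlapped their controls. Psmd7 (ILMN_2630438), the partner of Psmd14 in the lid, read 11.22, 11.11, 11.03 and 11.18 in C57BL/6J controls, 10.78, 10.83, 10.82 and 10.48 after 10 cGy and 10.69, 10.85, 10.93 and 10.84 after 1 Gy. Both irradiated groups lay below the controls without overlap, by 0.41 ± 0.16 (limma, adjusted p = 0.242) and 0.31 ± 0.16 (adjusted p = 0.3) on the log2 scale. In DBA/2J Psmd7 read 11.61, 11.14, 10.95 and 10.90 in the controls, 11.84, 10.95 and 11.68 after 10 cGy and 11.06, 11.01, 11.05 and 11.07 after 1 Gy, all overlapping.

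The 5 ATPase probes differed in scatter. Psmc1 ranged from 8.16 to 10.81 over the 23 pools, with 8.16 in DBA/2J high dose pool 3 and 9.91 to 10.02 in the other 3 pools of that group. Psmc2 ranged from 7.95 to 8.53, Psmc3 from 11.92 to 12.95, Psmc4 from 11.54 to 12.17 and Psmc5 from 11.76 to 12.54. For Psmc5, DBA/2J high dose lay below low dose by 0.53 ± 0.10 on the log2 scale with all 3 low dose pools (limma, adjusted p = 0.00104), without overlap. Over the 36 probes outside the immuno group, the median of this comparison was -0.26 with all pools and -0.04 with pool 2 alone. Among the other non-ATPase probes, Psmd1, a scaffold of the base like Psmd2, ranged from 12.69 to 14.01, Psmd2 from 8.01 to 8.44, Psmd12 from 8.06 to 8.73, Psmd13 from 12.18 to 13.03 and Psmd8 from 11.68 to 12.31. Psmd6, Psmd11 and the second probe of the ubiquitin receptor Psmd4 stayed between 7.85 and 8.05, near the floor. The first Psmd4 probe ranged from 13.24 to 13.90, so the probes of this gene disagree in signal, and neither was called in any comparison.

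Of the chaperones that build the core and the base, Psmg1 (ILMN_1258358) read 10.34, 10.55, 9.79 and 10.22 in C57BL/6J controls, 10.12, 9.95, 9.77 and 9.76 after 10 cGy and 9.71, 10.03, 9.95 and 9.52 after 1 Gy. In DBA/2J it read 10.17, 10.08, 9.99 and 9.86 in the controls, 10.61, 10.39 and 10.37 after 10 cGy and 9.84, 9.94, 9.93 and 9.81 after 1 Gy. The 3 DBA/2J low dose pools lay above all controls, pool 2 included, by 0.43 ± 0.15 (limma, adjusted p = 0.0743). Psmg3 in C57BL/6J read 9.39, 9.46, 9.68 and 9.46 in the controls, 9.38, 9.25, 9.41 and 9.04 after 10 cGy and 8.85, 9.48, 9.11 and 9.45 after 1 Gy. It read 9.16, 9.31, 9.29 and 9.14 after 1 Gy in DBA/2J. There it lay below low dose by 0.85 ± 0.17 on the log2 scale with all pools (limma, adjusted p = 0.00147). With low dose pool 2 alone that change was -0.72. Psmd10 ranged from 8.88 to 9.89 and Psmd9 from 7.94 to 8.29.

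The alpha ring, which gates the entry to the core, had 0 of 7 probes called by limma in each of the 9 comparisons. The share of all probes called ran from 0.163% to 32.6% over these comparisons, so 0 calls among 7 probes say little about the ring. At an unadjusted p under 0.05 there was 1 higher probe in each of the DBA/2J low dose change and its strain difference. Psma2 ranged from 14.15 to 14.77 over the 23 pools, Psma3 from 13.46 to 14.18, Psma4 from 12.40 to 12.96 and Psma7 from 11.99 to 12.38. Psma5, Psma6 and Psma8, the latter a testis-specific alpha subunit, lay between 7.83 and 8.09, near the floor. The remaining structural beta subunits ranged from 11.72 to 12.16 (Psmb2), 12.05 to 12.56 (Psmb3) and 13.53 to 14.08 (Psmb4), and Psme3ip1 from 10.81 to 11.42.

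The 7 probes that did not pass were those of Psma1, Psmb11, Psmc6, Psmd3, Psmd5 and Psmg4 and a second Psma3 probe. Psmb11, the thymus-specific catalytic subunit, was detected on 2 arrays. Psma1 was also detected on 2 arrays although its signal was 2044 to 3608, and Psmd3 on 0 arrays with a signal of 2976 to 6113. Psmd8 passed with 6 arrays detected and a signal of 3295 to 5579. The deposited detection p-value therefore did not follow the signal for these probes, and a probe left out of the 43 did not always have a low signal.

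Genes that work with the proteasome were counted in 4 lists. Of 18 partners, limma called 2 at high dose in C57BL/6J, 11.1% against 5.91% of all probes: Psmf1, the inhibitor PI31, fell by 1.29 on the log2 scale (adjusted p = 0.0064), and Zfand2a rose by 0.40 (adjusted p = 0.0465). Of 8 genes of ubiquitin activation and transfer, 3 rose in DBA/2J at low dose with all pools, 37.5% against 7.81% of all probes, namely the E1 enzyme Uba6 (0.60) and the E2 enzymes Cdc34 (0.55) and Ube2k (0.51). Uchl5, a deubiquitinase bound to the 19S particle, was the 1 partner called there (0.80), 5.56% of the list. Between the control groups the 1 called partner was Rad23b (0.27), 5.56% against 10% of all probes.

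Of 12 genes of class I presentation, 0 were called at high dose in C57BL/6J, against 5.91% of all probes. At an unadjusted p under 0.05 there was 1 higher, and all 12 lay above 0 with a median change of 0.23. In DBA/2J at low dose 3 of them fell with all pools: H2-M3 (-1.25), the transporter Tap2 (-0.69) and H2-D1 (-0.52), 25% against 7.81% of all probes. Between the control groups H2-K1 was lower (-3.39), H2-D1 higher (1.05) and the class I activator Nlrc5 lower (-0.67) in DBA/2J, 25% against 10% of all probes. Whether a DBA/2J variant under the probes of these 3 genes contributes was not tested. Of 17 genes of interferon gamma signalling, 3 were called higher at high dose in C57BL/6J, 17.6% against 5.91% of all probes. They were Socs1 (0.17), Cxcl10 (0.16) and Ifng (0.06), changes smaller than the list median of 0.29. All 17 lay above 0. In DBA/2J at low dose with all pools Gbp3 was the 1 called lower (-1.13), 5.88% against 7.81% of all probes, and 16 of 17 lay below 0. With pool 2 alone 6 of the 17 lay below 0 and 11 above it.

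For high against low dose in DBA/2J with all pools, 7 of the 12 class I genes were higher, and 7 of the 17 interferon genes were higher with 1 lower. These are 58.3% and 47.1% of the lists, against 32.6% of all probes called. H2-M3 (1.42), Gbp3 (1.49), Cxcl9 (1.15) and Irf1 (0.97) were among them. In the strain difference of the low dose change 6 class I and 6 interferon genes were lower in DBA/2J, 50% and 35.3% against 17% of all probes, among them H2-M3 (-1.71), Tap1 (-0.91), Cxcl9 (-1.78) and Irf1 (-1.34). Of the partners, 2 were higher and 6 lower in the former comparison (44.4%), and 4 higher and 1 lower in the latter (27.8%). With pool 2 alone, the median DBA/2J low dose change of the partner, ubiquitin, class I and interferon lists was -0.04, 0.02, -0.10 and 0.02. With all pools it was 0.11, 0.11, -0.33 and -0.22. For high against low dose in DBA/2J the medians with pool 2 alone were -0.01, -0.01, 0.23 and 0.01. They were -0.09, -0.12, 0.47 and 0.17 with all pools. For the strain difference of the low dose change they were -0.0004, 0.01, -0.38 and -0.17 with pool 2 alone. With all pools these were 0.12, 0.14, -0.60 and -0.45. In the high dose change of DBA/2J limma called 0 genes in each of the 4 lists, against 0.977% of all probes. At an unadjusted p under 0.05 there were 2 higher and 1 lower partner and 1 lower interferon gene.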

How the data were processed

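The authors deposited a linear signal intensity for each probe on each array, not normalized per the file headers, and beside each a detection p-value. They also deposited processed log2 values, which served as an alternative, and whose exact transform and centring are unknown. The submitters' processing notes name lumi, and its version, the scanner software and the slide of each array are not given in the sources used here. All 23 arrays were used. Replicate numbers follow sample order and pair nothing.

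Signals were corrected with limma 3.58.1 in R 4.3.3 by normexp with an offset of 16, with background inferred from the detection p-values, since the table has no control probes, and then quantile normalized and put on the log2 scale. The inferred background mean (158 to 227) lay above the signal at a detection p-value of 0.05 (104 to 140), which compresses dim probes. Probes detected (p-value under 0.05) on at least 3 arrays were kept, 1 row per probe. Group means of all 6 groups were fitted with lmFit and eBayes, giving 9 comparisons, each adjusted by Benjamini-Hochberg over 18423 probes and called at 0.05. The comparisons share groups, among them the controls of each strain. P-values reflect the spread among pools, each of 2 mice.

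Gene symbols came from the platform annotation, and all 50 probes of the name rule matched the mouse gene table. The members, lists and tests were chosen with earlier results of these data known. Pool values are given for Psmb5 to Psmb10, Psme1 and Psme2, and for the 12 called members with the largest change; further members are given by range, and called genes of the 4 partner lists up to 4 per comparison. Psme4 pools were added after its values were seen. The script was tested on simulated data. Alternatives covered background correction, normalization, the authors' log2 values, the detection filter, probe choice, variance model, array weights and samples left out. The background at the median signal of probes with detection p-values of 0.4 to 0.6, and DBA/2J low dose pool 2 alone in its group (assumed to vary like the other groups), were added after seeing the data.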

Additional observations from a re-analysis of the deposited data

Results flagged for a closer look

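Over 75 groups of 4 pools among the 15 genes with pool values, 3 held a pool set apart from the others by Dixon's 95% limit, and chance flags about 1 in 20 groups. Psmb6 read 8.77 in DBA/2J control pool 1 against 8.37 to 8.41 in the other 3. Psmc3ip read 8.7 in C57BL/6J low dose pool 2 against 8.59 to 8.6. Psmd7 read 10.48 in C57BL/6J low dose pool 4 against 10.78 to 10.83.

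The low dose change differed between the strains by limma's test of the difference for 13 probes, in DBA/2J minus C57BL/6J. Lower in DBA/2J were Psmb8 (-1.24), Psme1 (-0.87), Psmb9 (-0.8) and Psmb10 (-0.73). Higher in DBA/2J were Psmc3ip (1.68), Psmg3 (0.9), Psmg1 (0.75), Psmd7 (0.75), Psmc3 (0.7), Psmc5 (0.5), Psmd13 (0.47), Psmb2 (0.42) and Psmd9 (0.24). With DBA/2J low dose pool 2 alone none of the 13 was called.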

How the results depend on the processing

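No member call of the strain comparison or of C57BL/6J Psmb1 at high dose was lost under any alternative run. The counts of calls among the 43 probes moved as follows. In C57BL/6J at high dose, where 2 were called, median scaling, cyclic loess and no detection filter gave 1 each, array weights 9, pool 2 alone in the DBA/2J low dose group 9, and only the compared groups 4. Psme3 had an adjusted p of 0.0928, 0.0503 and 0.0584 under the first 3. In C57BL/6J at low dose, 0 became 3 with array weights, 4 with pool 2 alone and 1 with the added background. In DBA/2J at high dose, 1 became 0 with no detection filter and without both pools with pancreas transcripts, and 2 with array weights and with pool 2 alone. In DBA/2J at low dose, 7 became 0 with median scaling, with pool 2 alone and with only the compared groups, 2 with no detection filter, 3 with the added background and 26 with array weights. High against low dose gave 8 with median scaling, 0 with pool 2 alone and 4 with only the compared groups in DBA/2J (21), and 0 with only the compared groups in C57BL/6J (1). The strain comparison gave 5 in place of 3 with array weights and with only the compared groups. The low dose interaction gave 2 with median scaling, 26 with array weights, 0 with pool 2 alone and 3 with only the compared groups in place of 13. With pool 2 alone, Psmb10 and Psme1 turned from 0.64 and 0.57 to -0.0144 and -0.0135 in DBA/2J high against low dose. Fewer samples enter the fits with pool 2 alone, without the pancreas pools and with only the compared groups, and under the other settings the cause was not tested.

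Leaving out 1 pool at a time gave counts of 1 to 9 for C57BL/6J high dose, 1 for C57BL/6J high against low dose, 0 to 4 for C57BL/6J low dose, 0 to 3 for DBA/2J high dose, 9 to 29 for DBA/2J high against low dose, 0 to 22 for DBA/2J low dose, 3 to 5 for the strains, 0 for the high dose interaction and 2 to 24 for the low dose interaction. Each highest count above 1 came without DBA/2J low dose pool 2. The direction of the 5 immuno and PA28 genes at 1 Gy in C57BL/6J was the same in all settings run. Under median scaling, the median of the other 36 in DBA/2J at 1 Gy went from -0.07 to 0.05. The share of calls that were higher, over all probes, moved with median scaling from 60.5% to 19.1% (C57BL/6J high dose), 34.4% to 5.05% (C57BL/6J low dose), 61.1% to 83.3% (DBA/2J high dose), 52.2% to 93.3% (DBA/2J low dose), 44.6% to 22.8% (strains), 66.7% to 50% and 50.5% to 63.6% (high against low dose in C57BL/6J and DBA/2J), 64.3% to 100% (high dose interaction, 81.2% with cyclic loess) and 48.7% to 81.5% (low dose interaction). No paired analysis was possible because the labels give no pairing between pools. The slide as a block was not run, since no slide is named. For probes near the floor, such as those of Psma6 and Psmd11, signal over background limits what can be seen.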
